A study of Salmo salar with 12 samples.

Results

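The liver of female Atlantic salmon held 94780 consensus peaks of open chromatin. Of these, 205 (0.216%) were more accessible in every T2 library than in any library of T1, T3 or T4. In the 205 peaks the mean of T3 and T4 together lay within 0.5 of the T1 mean on a log2 scale. This bound is not far below their median T2 difference of 0.67. They were chosen on the log2(CPM + 1) values that the authors deposited, where CPM is the count of a peak relative to the library's total count in peaks. A peak belonged to the set if its 3 T2 values lay above the 9 values of the other time points, if its T2 mean exceeded the mean of these 9 by at least 0.5, and if its T1 mean and the mean of the 6 libraries of T3 and T4 differed by less than 0.5. The first condition was met by 363 peaks (0.383%), the first 2 by 224 and all 3 by 205. The mirror image of the rule, peaks closed at T2 only, was met by 473 peaks on the same deposited values. On this scale the T2 mean minus the mean of the 9 others had a median of -0.07 over all peaks. The numbers of opened and closed peaks are therefore not weighed against each other. Because the rule used all 12 libraries, the elevation of these peaks at T2 is what defined them, and it is given below as a description without a test.

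The fish were female brood stock, about 36 months after fertilisation, from a single management group that was moved to a long-light photoperiod known to stimulate sexual maturation. T1 was sampled just before the light regime began and the later time points 2 weeks apart after it, so T1 is the only time point without the light treatment and no fish kept on the earlier light regime at the later dates is part of the series. Different fish were used at each time point, with 3 libraries labelled as biological replicates, made from nuclei of frozen liver. In such samples a change in the mix of cell types and a change within 1 cell type cannot be told apart, and time under the long-light regime cannot be told apart from age or season.

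ATAC-seq uses the transposase Tn5, which inserts sequencing adapters preferentially where DNA is not covered by nucleosomes, so that a region with many reads is one that regulatory proteins can reach. Enhancers and promoters are the typical open regions, and an enhancer can open for a limited period when the factor that binds it is active. In female fish the liver is a target of oestrogen during maturation and takes up the production of vitellogenin, the yolk protein precursor that it exports to the growing oocytes. The tables identify peaks by number, so the peaks are named here by number and their positions and nearest genes were not analysed here.

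The libraries held 4199681 to 31312069 counts in peaks, and the T2 libraries 17139509 to 22714461. The SD of log2(CPM + 1) over all peaks, a measure of how far open regions stand out from weak ones, was 1.39 to 1.45 in the T2 libraries. It ranged from 1.24 to 1.47 at T1, from 1.21 to 1.48 at T3 and from 1.03 to 1.43 at T4. The lowest values, 1.03 to 1.28, were those of T4 replicate 2, T3 replicate 3, T1 replicate 1 and T4 replicate 1, which also had the 4 smallest totals. No T2 library was among these 4.

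The T2 difference of the 205 peaks was moderate. The T2 mean exceeded the mean of the 9 other libraries by a median of 0.67 on the log2(CPM + 1) scale, with a range of 0.50 to 1.45, whereas the median of this difference over all peaks was -0.07. In CPM, the T2 mean was 1.41 to 4.83 times the mean of the other libraries, with a median of 1.65, and it reached at least 2 times in 30 of the 205 peaks. A log2 difference of at least 1 was found in 13 peaks. The distance between the lowest T2 library and the highest of the 9 others was small in most of them, with a median of 0.08 and a maximum of 0.52. It was under 0.1 in 116 peaks and at least 0.25 in 25 peaks.

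Averaged over the 205 peaks, log2(CPM + 1) was 3.25 ± 0.01 in the T1 libraries, 3.97 ± 0.06 in the T2 libraries, 3.34 ± 0.09 in the T3 libraries and 3.18 ± 0.21 in the T4 libraries (SD, n = 3 each). Relative to each peak's own mean, the library averages were -0.19 to -0.18 at T1 and 0.49 to 0.61 at T2. They were -0.17 to 0.00 at T3 and -0.41 to -0.02 at T4. These averages thus lay closest together for T1 and farthest apart for T4. Opposite deviations of single peaks can cancel in such averages. Peak by peak, the median SD among the 3 replicates of the 205 peaks was smallest for T2, 0.166, against 0.200 for T1. The T3 and T4 medians were 0.236 and 0.356. Over all peaks T2 also had the smallest median, 0.230, with 0.267 for T1, 0.309 for T3 and 0.515 for T4. The rule chose the 205 peaks on these same values, so their SDs are a description.

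**Figure D1:**
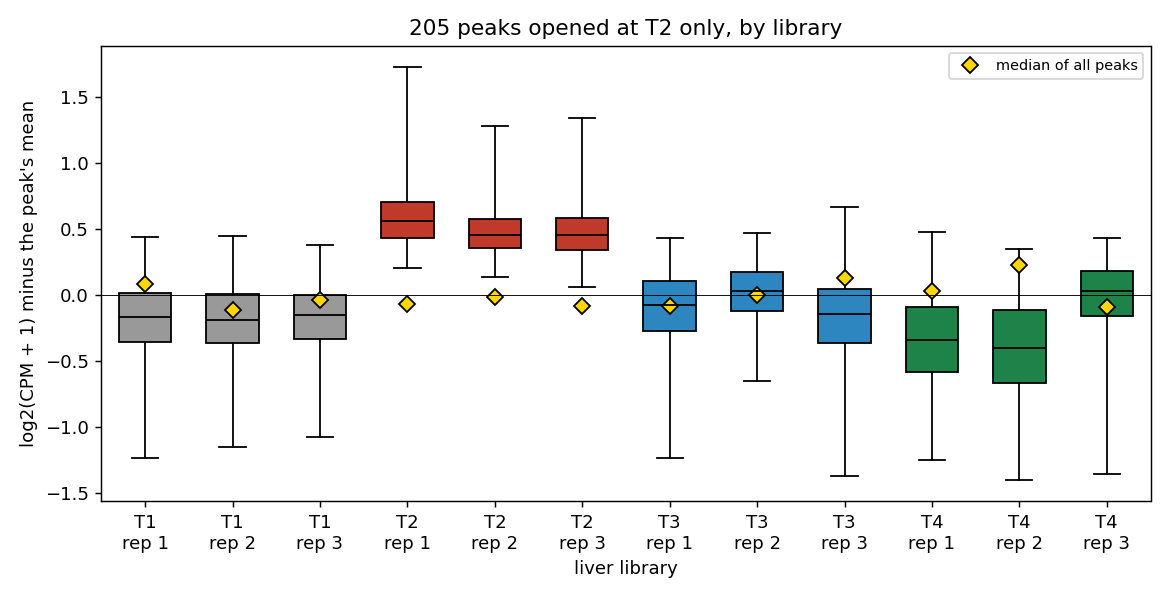
log2(CPM + 1) of the 205 peaks opened at T2 only, minus each peak's mean over the 12 libraries, for every library. Boxes show the quartiles, whiskers the full range and diamonds the median over all 94780 peaks. The medians of the T2 libraries are 0.56, 0.46 and 0.45, and those of the other libraries lie between -0.40 and 0.03.

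Within T2, replicate 1 was the highest of the 3 libraries in 102 of the 205 peaks, and replicate 3 was the lowest in 96. Among the 9 other libraries, T4 replicate 3 came closest to T2 in 49 peaks and T3 replicate 2 in 45, together 94 of 205. T4 replicate 2 was the lowest library in 68 peaks and T4 replicate 1 in 42. The lower end of these other values was therefore often set by these T4 libraries, both of low SD over peaks. T1 replicate 1 and T3 replicate 3, also of low SD, were the lowest in 19 and 17 peaks, against 16 and 18 for T1 replicates 2 and 3. These counts are given without the shares over all peaks, so nothing particular to the 205 peaks is read from them. The T2 difference of the 205 peaks was also read without the 4 libraries of low SD. Against the 5 other libraries that remained, the median T2 difference of the 205 peaks was 0.59, and 146 of them still differed by at least 0.5. Against the 4 libraries of low SD it was 0.79. Over all peaks the corresponding medians were 0.01 and -0.17. The 205 peaks were chosen with these 4 libraries included, so the rule makes both differences positive in each of them. Choosing anew without the 4 libraries gave 1620 peaks, 130 of them among the 205, where fewer libraries had to be exceeded. The part of the 4 libraries in the choice was not tested.

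The peaks were found over a wide range of accessibility but more often among the open ones. Their mean CPM over the 12 libraries was 0.842 to 113, with a median of 10.5, against a median of 5.37 over all peaks. Of the 205, 153 (74.6%) lay above the median of all peaks, 34 (16.6%) were among the most accessible 10% and 20 (9.76%) among the least accessible 25%. The rule's minimum difference on log2(CPM + 1) is harder to reach at low CPM, and the mean CPM includes the T2 libraries. These shares therefore describe what the rule selects and were not tested. The median T2 difference on the log2(CPM + 1) scale was 0.67 in the 52 members with the lowest means and 0.65 in the 51 with the highest. The pseudocount of 1 compresses this difference at low CPM, and the median ratio of the T2 mean to the mean of the others, in CPM, was 1.85 and 1.56 in these groups. A total of 182 peaks had at least 10 counts in every library, and all 205 passed the filter of a CPM above 1 in at least 2 libraries. Since a peak that is open at T2 can pass this filter through T2 alone, the passing is no result about these peaks.

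The peak with the largest T2 difference, peak12488, was weak elsewhere. Its CPM was 0.424, 0.703 and 1.28 in the T1 libraries, 4.36, 2.57 and 4.67 in the T2 libraries, 0.337, 1.83 and 0.535 at T3, then 0.346, 1.19 and 0.558 at T4. The T2 values rested on 99, 44 and 101 counts, while 4 of the 9 other libraries had 5 counts or fewer. Its log2 difference was 1.45, and the closest other library was T3 replicate 2.

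Next, peak49322 was strongly accessible and uneven within T2. Its CPM was 98.0, 67.1 and 35.1 in the T2 libraries and 16.4 to 33.5 in the 9 others, so that T2 replicate 3 stood only 0.07 above T3 replicate 2 on the log2(CPM + 1) scale. The T1 libraries of this peak were close together at 18.6, 16.4 and 18.6. Later values were 19.9, 33.5 and 18.6 for T3 and 32.4, 17.6 and 33.2 for T4, so 4 of the 6 later libraries were above every T1 library.

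A similar order of the T2 libraries was seen in peak87174, with a CPM of 35.4, 20.6 and 16.3 at T2. The T1 libraries of this peak had 9.75, 4.54 and 6.45, the T3 libraries 6.78, 9.69 and 8.56, and the T4 libraries 7.69, 10.7 and 14.0. For peak32276 the T2 libraries had a CPM of 10.2, 11.1 and 5.13, against 2.38 to 4.46 in the other libraries, whose T1 values spanned only 2.46 to 2.65. In 7 of the 8 peaks with the largest difference T2 replicate 3 was the lowest T2 library, peak12488 being the exception.

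The replicates of peak96709 lay close together at T1 and T3. Its T1 libraries had a CPM of 6.78, 6.23 and 6.71, the T2 libraries 19.6, 20.8 and 12.3, the T3 libraries 7.45, 8.17 and 7.76, and the T4 libraries 9.68, 6.43 and 4.46. The CPM of peak42351 was 18.5, 16.9 and 12.9 at T2 and 4.54 to 10.2 in the other libraries. A pair of peaks only 4 numbers apart, peak30309 and peak30313, had much the same course. In peak30309 the T1 libraries had a CPM of 32.7, 20.5 and 32.4, the T2 libraries 57.0, 68.1 and 39.0, the T3 libraries 35.3, 34.6 and 17.8, and the T4 libraries 24.7, 17.9 and 10.7. In peak30313 the T1 libraries had 12.5, 14.8 and 14.2, the T2 libraries 31.0, 31.9 and 19.7, the T3 libraries 18.2, 18.3 and 5.08, and the T4 libraries 12.4, 9.76 and 8.89. Both peaks were lowest in T3 replicate 3 among the T3 libraries and fell below their lowest T1 library in at least 2 of the 3 T4 libraries.

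**Figure D2:**
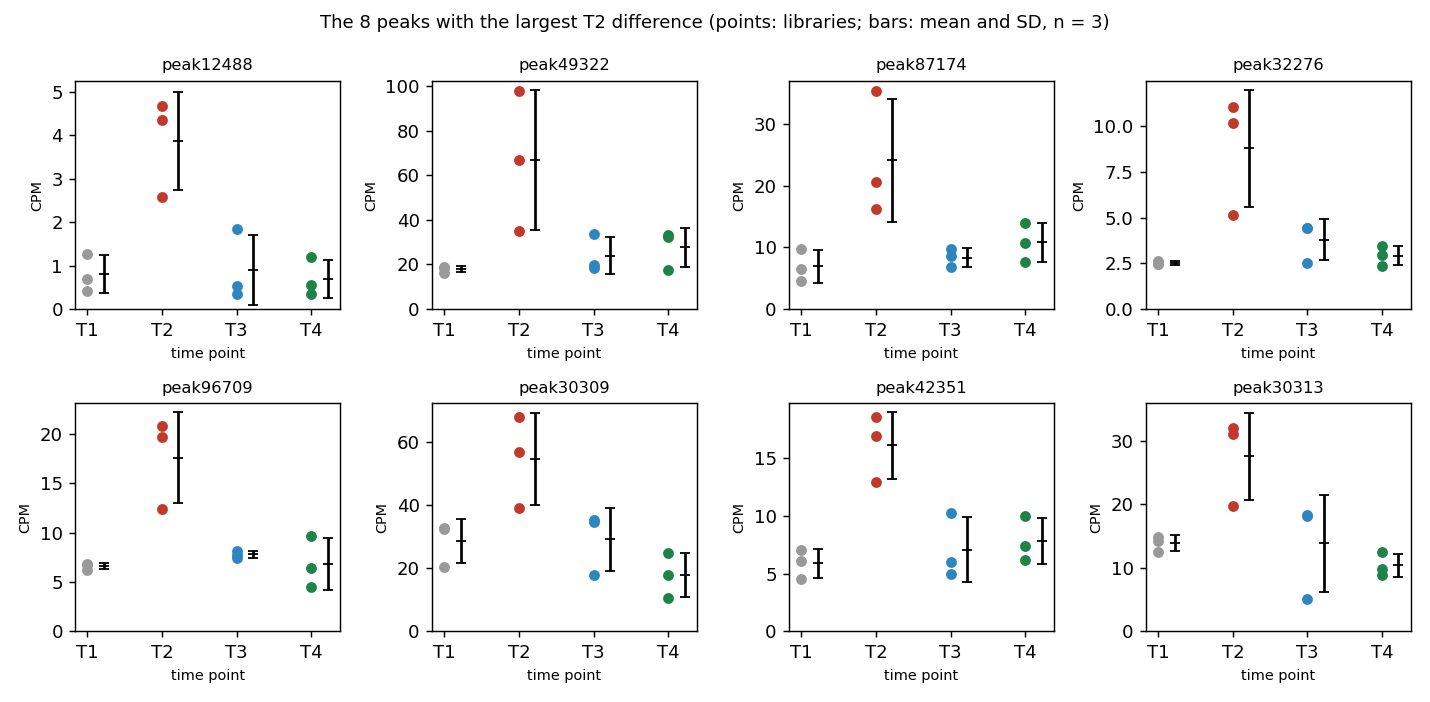
CPM of the 8 peaks with the largest T2 difference at T1, T2, T3 and T4. Points are single libraries and bars give the mean and SD (n = 3). Each T2 point lies above all 9 other points of its panel, as the rule demands, and the T2 points spread widely, for example from 35.1 to 98.0 in peak49322.

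The clearest separation from the other libraries belonged to peaks with smaller differences. In peak51404 the T2 libraries had a CPM of 9.29, 11.7 and 10.7 and the 9 others 2.94 to 6.18, a distance of 0.52 between the lowest T2 library and the highest other library on the log2 scale. In peak26469 the CPM was 6.47, 6.18 and 6.61 at T2 and 2.14 to 4.07 elsewhere, a distance of 0.50. In peak99949 it was 8.23, 7.12 and 7.07 at T2 and 3.33 to 4.78 elsewhere, a distance of 0.48. In peak26469 and peak51404 the other libraries were uneven, with T4 libraries of peak26469 at 2.16, 2.14 and 4.07 and T3 libraries of peak51404 at 5.85, 6.18 and 2.94. In peak99949 they were more even: the T1 libraries had a CPM of 4.24, 4.78 and 3.96, the T3 libraries 4.08, 4.66 and 4.01, and the T4 libraries 4.67, 3.33 and 4.78. The T2 libraries of peak14158 had a CPM of 16.9, 19.1 and 18.1, against 7.49 to 12.2 in the other libraries, and those of peak63382 had 6.82, 5.60 and 6.01, against 2.48 to 3.88.

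Among the 5 most accessible peaks of the set, the highest mean was that of peak101505, with a CPM of 84.2, 114 and 99.7 in the T1 libraries, 161, 161 and 132 in the T2 libraries, 98.8, 116 and 89.6 at T3, then 131, 68.1 and 105 at T4. Its T2 replicate 3 and T4 replicate 1 were almost equal, at 132 and 131. The T2 libraries of peak36713 had a CPM of 132, 127 and 113, against 62.4 to 106 in the others. For peak36180 the T2 values of 105, 101 and 104 stood above 40.7 to 83.5, with a distance of 0.28 on the log2 scale to the closest library. In peak45549 the T2 libraries were at 102, 93.8 and 89.5, and T1 replicate 2, at 81.3, T3 replicate 1, at 84.6, and T3 replicate 2, at 78.6, were close below, while the T4 libraries were at 34.4, 24.8 and 48.9. In peak57550 the T2 libraries were at 84.4, 71.8 and 75.8 and the others at 29.3 to 65.8.

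The values at the minimum difference ran on without a step. The members nearest to the minimum difference of 0.5 were peak15869, peak26576 and peak89479, with differences of 0.50, 0.51 and 0.51. Just outside it, peak31170, peak49152 and peak96810 met the other conditions with differences of 0.496, 0.496 and 0.495. In peak31170 log2(CPM + 1) was 5.73, 5.54 and 5.42 at T2, and T1 replicate 2 reached 5.42 as well.

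The number of 205 peaks was set beside the number that the same rule finds with other libraries in the place of T2. With the first 2 conditions, the 3 T2 libraries gave 224 peaks, the T3 libraries 272, the T4 libraries 347 and the T1 libraries 1189. With the third condition added, which cannot be formed when T1 takes the place of T2, the numbers were 205 for T2, 259 for T3 and 331 for T4. T2 thus gave the smallest number of the 4 time points. All 218 other sets of 3 libraries that leave a T1 library were counted in the same way, and they gave 10 to 8342 peaks with a median of 110. The T2 set was above 150 of them and below 68. The number of peaks opened at T2 only was therefore within the range that sets of libraries of mixed time points gave.

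**Figure D3:**
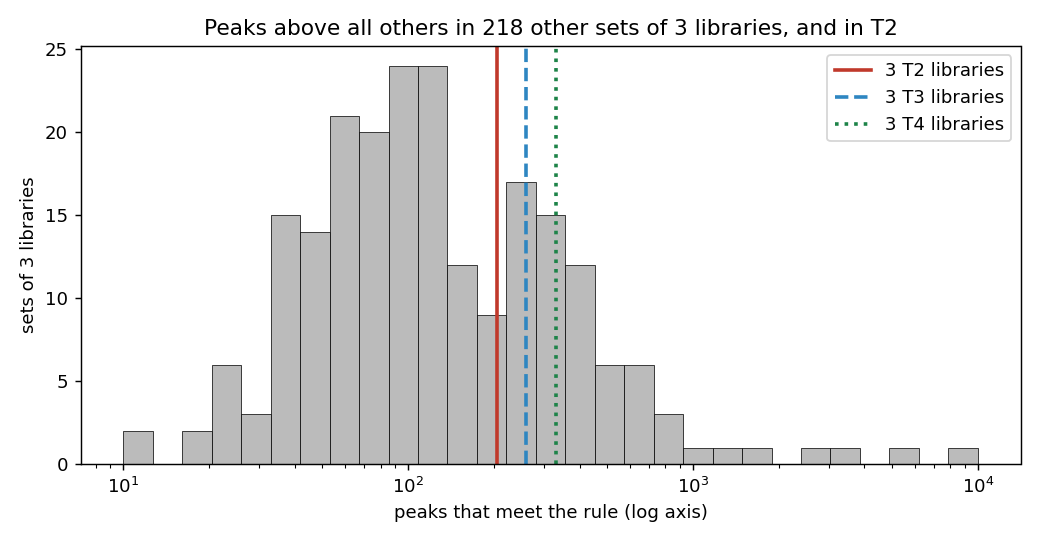
Number of peaks that meet the rule when each of 218 other sets of 3 libraries takes the place of T2 (bars, logarithmic axis), with lines for the libraries of T2, T3 and T4. The line for T2 stands at 205, above the median of 110 and below those for T3 at 259 and T4 at 331.

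The sets with the highest numbers held the libraries of low SD. The highest, 8342 peaks, came from T3 replicate 3 with T4 replicates 1 and 2, and 9 of the 10 highest sets held at least 2 of the 4 libraries of low SD. Of the 55 other sets with none of these 4 libraries, 13 gave more peaks than T2, and their median was 98. The highest of the 55 was 606, from T2 replicates 1 and 2 with T4 replicate 3, and the next was 469, from T2 replicates 1 and 2 with T3 replicate 2. Exchanging T2 replicate 3 for any T3 or T4 library gave more peaks than the 3 T2 libraries did. The number was 279 with T3 replicate 1. It was 332, 286 and 447 with T3 replicate 3, T4 replicate 1 and T4 replicate 2, which are of low SD. With a T1 library in that place the number was at most 156, below that of the 3 T2 libraries. The cause of this difference was not tested.

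To read the T2 elevation in a library that had no part in the choice, peaks were chosen 3 times, each time without 1 of the T2 libraries. Leaving out replicate 1 gave 300 peaks, of which 199 (66.3%) lay above all 9 other libraries in the library left out. Leaving out replicate 2 gave 466 peaks with 208 (44.6%) above, and leaving out replicate 3 gave 1276 peaks with 203 (15.9%) above. Over all peaks these shares were 6.34%, 4.40% and 4.14%. The chosen peaks were also selected for being low in the 9 other libraries, which makes them easier to exceed than a peak at large, so the shares are a description and not a test.

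The size of the difference in the library left out was smaller than in the libraries that chose. In T2 replicate 1 the median was 0.58, against 0.63 in the choosing libraries, and in T2 replicate 2 it was 0.41 against 0.70. In T2 replicate 3 it was 0.08 against 0.70, with 744 of 1276 peaks (58.3%) above the mean of the 9 others where 40.3% of all peaks were. T2 replicates 1 and 2 thus shared many elevated peaks that replicate 3 did not have to the same extent. With the first 2 conditions, pooled over the 3 rounds, the share above all 9 others was 27.3% for T2, 54.4% for T1, 31.0% for T3 and 6.52% for T4. The corresponding shares over all peaks were 4.96%, 7.99%, 7.31% and 23.7%. With all 3 conditions the pooled share for T2 was 29.9%.

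**Figure D4:**
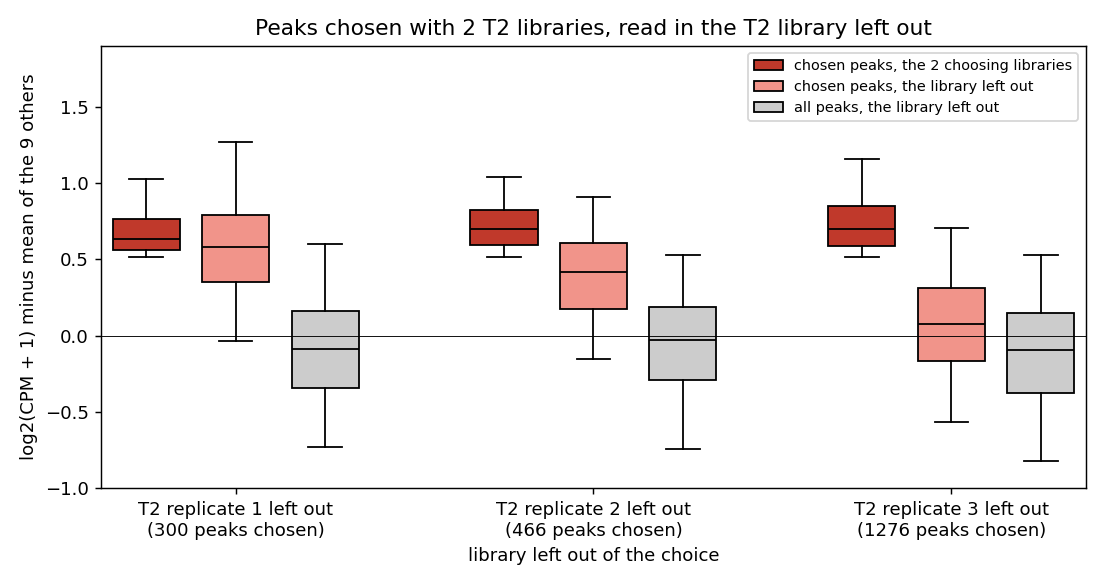
Difference from the mean of the 9 libraries of T1, T3 and T4, in log2(CPM + 1), for peaks chosen with the other T2 libraries and read in the T2 library left out, with all peaks beside them. Boxes show quartiles and whiskers the 5% to 95% range. The medians in the library left out are 0.58, 0.41 and 0.08 for replicates 1, 2 and 3.

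Tests on the counts gave few calls. Between T2 and T1, edgeR's quasi-likelihood test called 89 of 92360 peaks (0.0964%), a call being an adjusted P below 0.05 with a log2FC beyond 1 in either direction, of which 40 were higher at T2 (0.0433%). Of the 205 peaks, 3 were called, all of them higher at T2, and 187 had an unadjusted P under 0.05 with a higher value at T2, where 5.74% of all peaks did. None was lower at an unadjusted P under 0.05, against 6.44% of all peaks. The rule required T2 to lie above T1, so nothing is read from these counts. The log2FC of the 205 peaks was 0.31 to 2.20, with a median of 0.77, and the adjusted P was 0.0438 to 0.583.

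The called peaks were peak43876, peak42351 and peak49322. In peak43876 the T2 libraries had a CPM of 35.4, 27.9 and 35.2 and the T1 libraries 14.2, 15.3 and 13.3, with a log2FC of 1.23 (SE 0.19, edgeR adjusted P = 0.0438). Its T3 libraries were at 17.0, 15.9 and 20.7 and its T4 libraries at 14.2, 20.0 and 21.9, between T1 and T2 in 5 of 6 cases. The log2FC was 1.48 for peak42351 (SE 0.23, edgeR adjusted P = 0.0463) and 1.92 for peak49322 (SE 0.30, edgeR adjusted P = 0.0488). The fourth peak by P, peak96709, had a log2FC of 1.43 (SE 0.23) and missed the threshold with an edgeR adjusted P of 0.0518. The SE was computed back from the test's F statistic and restates its P. When 1 library was left out, none of the 205 peaks was called in 5 of 6 fits, and 21 were called without T2 replicate 3, where 841 of 92042 peaks were called higher at T2. DESeq2 called 38 of them, all higher at T2, where 716 of 92360 peaks were called higher among 1520 calls. With the replicate number as a block edgeR called 7, all higher, where 164 of 92360 peaks were called higher among 299 calls.

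A fit of all 12 libraries compared T2 with the mean of the other time points. edgeR's quasi-likelihood test called 0 of 94675 peaks (0%), with 4864 at an unadjusted P under 0.05. DESeq2 called 59 of 94675 peaks, 36 of them higher at T2, and 18 of these 36 were among the 205. The rule used this contrast, so nothing is read from that share. The 205 peaks had log2FC values of 0.57 to 2.38 with a median of 0.79, and their smallest adjusted P was 0.435. An unadjusted P under 0.05 with a higher value at T2 was found for 199 of them, against 2.72% of all peaks, and a lower value for none, against 2.41%, as the rule demands. The median SE of the log2FC was 0.25. No single member passed the adjusted threshold in edgeR's fit.

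The rule pooled T3 and T4 and set no condition on the difference between them. It did require every T3 and T4 library to lie below T2, which removes high values more often from a group that spreads widely. Over all peaks the median SD within a time point was 0.52 at T4 and 0.31 at T3. The comparison of T4 with T3 in these peaks is therefore a description, and the part of the selection in it was not tested. In edgeR's test 0 of 94313 peaks were called between T4 and T3 (0%), with 4117 higher and 1088 lower at T4 at an unadjusted P under 0.05 (4.37% and 1.15%). DESeq2 called 4, none of them among the 205. Of the 203 peaks of the set that were tested, 0 were higher and 1 was lower at T4 at an unadjusted P under 0.05. That peak was peak45549, with a log2FC of -1.02 (edgeR adjusted P = 0.83). The median log2FC of the tested members was -0.21, and 53 of them had a positive value, whereas the median over all tested peaks was 0.01. On the deposited scale the T4 mean was below the T3 mean in 141 of the 205 peaks (68.8%), against 44.6% of all peaks.

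This lower level at T4 moved with single libraries. The median log2FC between T4 and T3 was -0.07 without T4 replicate 2 and -0.50 without T4 replicate 3, both in edgeR's fit. Without T4 replicate 3, 42 of 202 tested members were lower at T4 at an unadjusted P under 0.05, as were 11906 of all 94233 peaks tested in that fit. T4 replicate 2 had the lowest total, 4199681 counts, and the lowest SD over peaks. The T4 libraries all lay below the T3 libraries in 14 of the 205 peaks (6.83%, against 4.62% of all peaks) and all above them in 1 (0.488%, against 2.81%).

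Compared with T1, the peaks of the set were not all back at the same level by T3. The T3 mean was above the T1 mean in 135 of 205 peaks (65.9%, against 56.1% of all peaks), with a median difference of 0.07 and a range of -0.50 to 0.64. The 3 T3 libraries lay above the 3 T1 libraries in 28 peaks (13.7%, against 6.59% of all peaks) and below them in 2 (0.976%, against 5.89%). At T4 the mean was above T1 in 94 peaks (45.9%, against 59.0% of all peaks), with a median difference of -0.03 and a range of -0.93 to 0.59. The T4 libraries lay above the T1 libraries in 10 peaks (4.88%, against 6.32%) and below them in 12 (5.85%, against 7.61%). T3 was the highest of the time points other than T2 in 103 peaks (50.2%), where it was so in 26.1% of all peaks. The rule bounds the mean of T3 and T4 around T1 and holds each of their libraries below T2. These counts therefore describe how the later values were divided and were not tested.

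**Figure D5:**
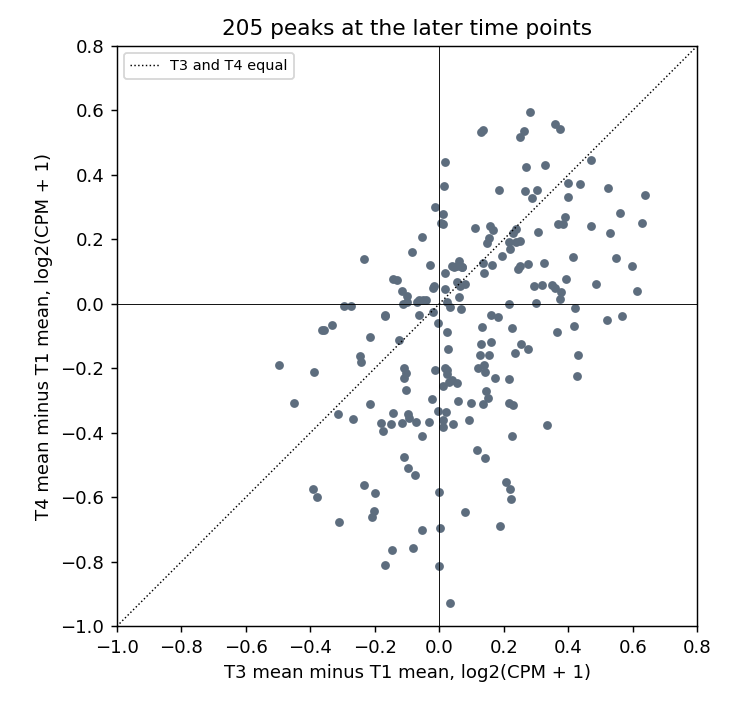
T3 mean minus T1 mean (horizontal) and T4 mean minus T1 mean (vertical) of the 205 peaks, in log2(CPM + 1), with a dotted line where T3 and T4 are equal. Of the 205 points, 135 lie right of 0, 94 lie above 0, and 141 lie below the line.

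Most peaks with T2 values above T1 had a later mean nearer to T2 than to T1. The 3 T2 libraries lay above the 3 T1 libraries, by at least 0.5 on average, in 3222 peaks. Of these, 164 (5.09%) met the T2-only rule. In 2207 of the 3222 the mean of T3 and T4 was nearer to T2 than to T1. This condition is much looser than the rule, so the 164 and the 2207 are not compared. The other 41 of the 205 had a T2 mean less than 0.5 above T1. In such peaks the rule itself forces the mean of T3 and T4 to lie below T1. The T4 mean was below T1 in all 41 and the T3 mean in 27, so these counts only describe how the forced lower level was divided. The T1 libraries are shared by both differences, so a low value at T1 by itself places a peak among those nearer to T2 later. The share of such peaks was not tested.

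Members of the set were close together in peak number more often than peaks at large. Consecutive numbers tended to share their course, with a median Pearson correlation over the 12 libraries of 0.27, against 0.04 for peaks 1000 numbers apart. This is a description across peaks of the same libraries. Of the 205 peaks, 10 (4.88%) stood next to another member, in 5 pairs, whereas 0.430% of all peaks stood next to a member. Within 5 numbers of another member there were 21 (10.2%, against 2.08% of all peaks), and within 10 numbers there were 23 (11.2%, against 4.10%). The 398 peaks that stood next to a member without meeting the rule had a median T2 difference of 0.08, and 61.1% of them were above 0, against 40.0% of all peaks.

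The 5 pairs differed in level and in how alike their peaks were. In the pair of peak96286 and peak96287 the CPM at T2 was 39.1, 28.2 and 24.2 in peak96286 and 13.6, 11.3 and 10.7 in peak96287, and in both the closest other library was T3 replicate 1, at 23.9 and 10.4. In peak102112 and peak102113 the T2 libraries had a CPM of 19.0, 16.8 and 16.0 and of 28.3, 28.1 and 23.2, with T4 replicate 3 closest in both, at 14.3 and 22.4. The values at T2 were 14.1, 16.4 and 14.6 in peak48999 and 14.6, 15.2 and 17.7 in peak49000, but the closest library differed between the peaks. In peak92519 and peak92520 the T2 differences were 0.65 and 0.91, and in peak34751 and peak34752 they were 0.56 and 0.61. Thus 2 of the 5 pairs shared the library that came closest to T2.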

How the data were processed

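Liver ATAC-seq counts of 12 libraries (3 per time point, assigned by their sample names) were used. According to the methods and the submitters' processing notes, the authors mapped reads with Bowtie2 2.3.5.1 to ICSASG_v2, removed duplicates with Picard and multi-mapped and mitochondrial reads with SAMtools, called peaks with MACS2, retained those seen in 2 or more replicates, merged the time points and counted reads with HTSeq 0.11.1. Whether read positions were shifted for Tn5 is not given in the sources used here. The deposited counts are whole numbers without normalization. The authors also deposited log2 values, log2(CPM + 1) of the same counts, which differed from recomputed values by at most 4.62e-14. Counts in peaks were 7.05% (T4 replicate 2) to 48.4% (T1 replicate 3) of the uniquely mapped reads, and 32.7% to 41.3% in the T2 libraries. The mapped reads of some T2 and T4 libraries are of uncertain assignment, as given below. How this share and the depth bear on the spread of the log2 values was not tested.

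The set was chosen on the deposited log2 values. Counts were tested with R 4.3.3 and edgeR 4.0.16 (CPM above 1 in at least 2 libraries, TMM, quasi-likelihood test, Benjamini-Hochberg adjustment), for T2 against T1 and T4 against T3 on 6 libraries each and for T2 against the mean of the others on 12. Calls needed an adjusted P below 0.05 and a log2FC beyond 1 in either direction. The procedures were tested on simulated data. Tables were made with Python 3.11.15, pandas 2.3.3, numpy 2.4.6, scipy 1.17.1 and matplotlib 3.10.9.

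Replicates are labelled biological. All value columns belonged to these 12 libraries. The alternatives were DESeq2 1.42.0, no TMM, TMM-scaled or mapped-read library sizes, a pseudocount of 0.25, no filter or at least 10 counts in every library, a minimum difference of 0.3 or 1, a tolerance of 0.25 or 1, a replicate block and leaving out each library. Mapped reads came from the study's mapping statistics, where codes and descriptions of some T2 and T4 libraries conflict. T2 replicate 2 was assigned by description and the T4 libraries by code, so this alternative is uncertain. Leaving out the 4 libraries of low SD was chosen after seeing the data. The members, the rule and the tests were chosen with earlier results of these data known. Peaks named in the text were the 8 with the largest difference, the 5 with the largest distance to the other libraries, the 5 with the highest mean, the 4 with the smallest P between T2 and T1, the 3 on each side of the minimum difference, and the runs of consecutive numbers (5 pairs of equal length, all given). peak45549 is named a second time as the single member of its count.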

Additional observations from a re-analysis of the deposited data

How the results depend on the processing

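The number of peaks opened at T2 only depended on scaling and on single libraries. It was 321 with TMM-scaled library sizes and 542 with uniquely mapped reads as library sizes, whose assignment to some T2 and T4 libraries is uncertain here and below, with 176 and 96 of the 205 peaks among them. The median T2 difference over all peaks was -0.07 on the deposited scale, 0.00 with TMM and 0.27 with mapped reads, and that of the 205 peaks was 0.67, 0.74 and 0.97. A minimum difference of 0.3 gave 325 peaks and a minimum of 1 gave 13, of which 0% stood next to another. With 1 library left out the number ranged from 223 to 1276 (1276 without T2 replicate 3, 466 without T2 replicate 2, 382 without T4 replicate 3). Leaving out any library makes the first condition easier to meet, so a number above 205 follows in part from the rule itself. The size of that part was not tested. Without the 4 libraries of low SD it was 1620, 130 of them among the 205, and fewer libraries had to be exceeded there. The other settings kept the number within 1.5 times, and the share above the 9 others in a T2 library left out was 29.9% with all conditions on the deposited values and 23.6% to 40.2% in the 8 settings tried.

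Between T2 and T1, DESeq2 called 1520 peaks, mapped-read library sizes 404 and a minimum of 10 counts in every library 137, against 89. With 1 library left out the calls ranged from 7 (without T1 replicate 3) to 1556 (without T2 replicate 3). With the replicate block they were 299. Between T4 and T3, DESeq2 called 4 peaks, mapped-read sizes 11, and fits without 1 library 0 to 2. For T2 against the other time points these were 59, 182 and 0 to 6, and without the 4 libraries of low SD 1 peak was called. The replicate block gave 0 calls in both. Replicate numbers mark different fish, and deviations of same-numbered libraries correlated from -0.49 to 0.29, over 0.1 in 4 of 18 pairs. The main fits therefore did not pair the samples by number. Whether same-numbered libraries shared a preparation cannot be told from these correlations and was not tested. The causes of the differences between settings were not tested. For the 32 named peaks the T2 difference ranged from 0.37 to 2.07 over 480 alternative values, and its positive sign in most of these follows from the choice of the peaks. Depth limits the weakest peaks, since counts in T4 replicate 2 ranged from 0 to 286 over the 205 peaks.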
